A study of Homo sapiens with 18 samples.

Results

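The genes described here encode the enzymes that make serine from a glycolytic intermediate and the folate enzymes that pass its side-chain carbon on. The list named 9 genes, and a gene was represented by the probe that carries its symbol alone, taking the probe with the highest mean where a symbol has several. This found 1 probe for each of 8 genes, PHGDH, PSAT1, PSPH, SHMT2, MTHFD2, MTHFD1L, ALDH1L2 and MTHFD1, out of 21448 probes, of which 17709 carry 1 gene symbol. SHMT1 was not analysed here.

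The samples were OCI-AML3 cells, a human acute myeloid leukaemia line labelled wild type in genotype, exposed for 24 h to RG7112 at 2 µM, to HDM201 at 500 nM or to the solvent DMSO. In the series' design text both compounds are MDM2 inhibitors, MDM2 being the E3 enzyme that marks p53 for degradation. Each group had 6 biological replicates, hence 18 arrays, and no other dose or time was measured. Nothing in the labels tells whether replicates were grown apart, so the p-values cover only the spread between these samples, and all of them come from 1 cell line. Values are log2 signals, and the number of arrays limits their precision.

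In serine synthesis PHGDH oxidises 3-phosphoglycerate, PSAT1 transaminates the product with glutamate and PSPH removes the phosphate. SHMT2 in mitochondria then splits serine into glycine and a one-carbon unit on tetrahydrofolate, which MTHFD2 oxidises and MTHFD1L releases as formate, or which ALDH1L2 oxidises to carbon dioxide with formation of NADPH. MTHFD1 takes up formate in the cytosol and supplies one-carbon units for purines, thymidylate and methionine. Leukaemia cells and other proliferating cells use this route for nucleotides, and the transcription factor ATF4 is known to induce several of its genes when amino acids run short. In other cells p53 has been described to lower PHGDH.

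The promoter windows of 4 members are shown because these genes took different courses below: PHGDH and MTHFD1 fell under both compounds, PSAT1 was higher, and MTHFD1L did not pass. Each window runs from 250 bases before to 50 bases after the annotated start, on the plus strand of GRCh38.p14, from RefSeq. Capitals mark matches, on either strand, to 1 of 4 motifs: CACGTG (the E-box that MYC binds), TGATGNAA (a composite element of ATF4 and C/EBP factors), TTTNNCGC (an E2F motif) and TTTGAA (the CHR element of cell cycle genes).
PHGDH, chr1:119711684-119711983: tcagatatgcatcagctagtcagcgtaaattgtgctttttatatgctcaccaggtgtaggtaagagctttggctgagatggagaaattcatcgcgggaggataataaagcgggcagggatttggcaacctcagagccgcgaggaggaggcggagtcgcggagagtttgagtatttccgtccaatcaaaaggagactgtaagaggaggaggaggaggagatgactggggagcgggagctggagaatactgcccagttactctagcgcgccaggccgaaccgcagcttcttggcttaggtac
PSAT1, chr9:78296875-78297174: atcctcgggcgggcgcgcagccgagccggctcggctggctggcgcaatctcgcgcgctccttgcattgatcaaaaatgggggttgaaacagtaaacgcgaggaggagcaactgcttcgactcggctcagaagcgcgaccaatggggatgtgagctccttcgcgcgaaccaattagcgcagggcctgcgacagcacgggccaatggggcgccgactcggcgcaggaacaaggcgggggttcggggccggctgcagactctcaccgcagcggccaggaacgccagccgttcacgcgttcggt
MTHFD1, chr14:64388103-64388402: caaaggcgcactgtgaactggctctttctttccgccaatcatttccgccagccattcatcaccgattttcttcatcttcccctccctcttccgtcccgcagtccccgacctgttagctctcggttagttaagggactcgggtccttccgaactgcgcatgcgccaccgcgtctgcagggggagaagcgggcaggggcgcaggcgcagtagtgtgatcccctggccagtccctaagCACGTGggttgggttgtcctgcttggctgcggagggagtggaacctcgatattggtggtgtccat
MTHFD1L, chr6:150866236-150866535: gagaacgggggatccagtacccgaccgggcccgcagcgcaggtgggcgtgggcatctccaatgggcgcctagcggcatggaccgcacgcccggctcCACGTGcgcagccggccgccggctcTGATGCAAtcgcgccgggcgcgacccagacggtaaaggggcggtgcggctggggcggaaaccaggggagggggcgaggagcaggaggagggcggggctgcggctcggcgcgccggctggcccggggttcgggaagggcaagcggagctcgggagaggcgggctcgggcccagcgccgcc
The windows of PHGDH and PSAT1 held none of the 4 motifs. MTHFD1 held CACGTG at position -15 from the start, and the MTHFD1L window shown here held CACGTG at -154 and TGATGNAA at -129. Of 5 members with a window, PHGDH, PSAT1, MTHFD1, MTHFD2 and MTHFD1L, 2 held CACGTG, 1 held TGATGNAA, 0 held TTTNNCGC and 1 held TTTGAA, the last in another of the 4 windows listed for MTHFD1L. A member was counted when any of its windows matched, while the following shares are per window, so the units differ. Among all 35116 windows of this length, 7.26% held CACGTG, 3.62% TGATGNAA, 6.89% TTTNNCGC and 15.2% TTTGAA. MTHFD2 had a window without a match. The counts describe letters in these windows and were not tested.

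The arrays were checked as follows. Medians lay between 6.44 and 6.57, and the lowest signals on the arrays between 2.66 and 2.85. Of 6 measured markers of the myeloid leukaemia line 5 lay above the median probe under DMSO, among them PTPRC, SPI1, CEBPA and LYZ, and MPO, the granule peroxidase, lay below it at 5.41. Markers of lymphocytes (1 of 5), of erythroid cells and megakaryocytes (2 of 4) and of fibroblasts and epithelia (1 of 6) lay above that median, and the highest of these was COL1A2 at 8.24. CDKN1A, the p53 target that encodes p21, averaged 12.20 ± 0.49 under RG7112, 12.33 ± 0.44 under HDM201 and 8.23 ± 0.92 under DMSO (SD, n = 6 each), and MDM2 averaged 12.46 ± 0.22 under RG7112, 12.46 ± 0.17 under HDM201 and 9.88 ± 0.50 under DMSO. Replicates 1 to 3 differed from replicates 4 to 6, although the labels name no batch: CDKN1A under DMSO averaged 9.06 ± 0.10 in replicates 1 to 3 and 7.41 ± 0.23 in 4 to 6 (SD, n = 3 each). RG7112 replicate 3 stood apart from all others, with a mean correlation of 0.972 with its own group over probes against 0.986 to 0.994 on the other arrays. Members are therefore also described within both sets and without that array.

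The comparisons of RG7112 and of HDM201 with DMSO ask how MDM2 inhibition changes transcripts of these leukaemia cells. Of 8 measured members 4 fell and 1 rose under RG7112, and 4 fell and none rose under HDM201. The genes that fell were PHGDH, ALDH1L2, MTHFD1 and SHMT2 in each comparison, and both comparisons use the same DMSO arrays. A gene is said to have changed when limma's linear model gave a Benjamini-Hochberg adjusted p under 0.05, with all 21448 probes in the adjustment. By that call 17.5% of all probes changed under RG7112 and 18.8% under HDM201: 9.61% of all probes fell and 7.9% rose under RG7112, and 9.64% fell and 9.16% rose under HDM201. The median member change was -0.31 under RG7112, where the median of all probes was 0.03, and -0.37 under HDM201, where it was 0.02. In 4 members the arrays of a compound did not overlap those of DMSO, and each of these members was lower. Under RG7112 5.61% of all probes were lower without overlap, and under HDM201 6.92%.

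**Figure D1:**
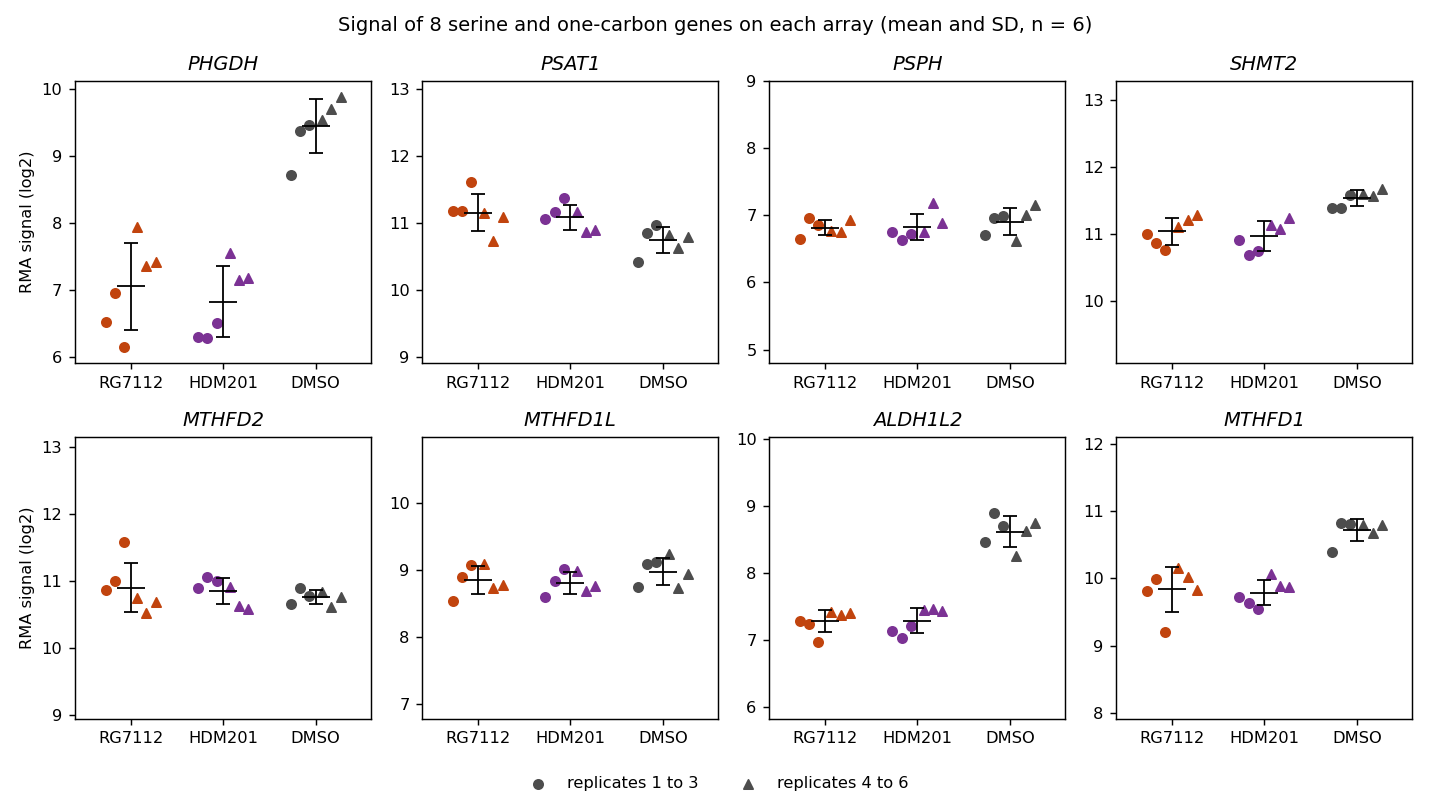
Log2 RMA signal (vertical axis) of the 8 members on every array, by group, with circles for replicates 1 to 3, triangles for 4 to 6, and bars for the mean and SD (n = 6). All panels span the same number of log2 units. PHGDH, ALDH1L2, MTHFD1 and SHMT2 lie lower under both compounds than under DMSO without overlap, and the other 4 genes overlap.

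PHGDH, which encodes the first enzyme of serine synthesis, fell further than any other probe on the arrays. Its signal ran from 6.16 to 7.94 with a median of 7.16 under RG7112, from 6.29 to 7.55 with a median of 6.83 under HDM201, and from 8.71 to 9.87 with a median of 9.50 under DMSO. Every treated array lay below every DMSO array, with DMSO replicate 1 the lowest control and RG7112 replicate 4 the highest treated array. PHGDH fell 5.22-fold under RG7112 (log2 difference -2.39 ± 0.27 SE, n = 6 each, limma adjusted p = 2.78e-06). It fell 6.13-fold under HDM201 (-2.61 ± 0.27, limma adjusted p = 5.11e-07). Both differences were the lowest of all 21448 probes, the next lowest being -1.97 under RG7112 and -2.24 under HDM201. PHGDH also ranked first from below in each of 30 fits per comparison. These were the main fit and those with other settings or with 1 array left out. Part of them could not change that rank. The other prior, only the arrays compared, the block, the set covariate and leaving out arrays of the other compound keep each difference of means. The filters on dim probes only remove other probes. Without RG7112 replicate 3, itself the lowest array at 6.16, the RG7112 difference was -2.21 (limma adjusted p = 5.29e-06).

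The PHGDH signal also differed between the replicate sets. It averaged 6.55 ± 0.40 in replicates 1 to 3 and 7.57 ± 0.32 in 4 to 6 under RG7112, 6.36 ± 0.12 and 7.29 ± 0.22 under HDM201, and 9.18 ± 0.41 and 9.70 ± 0.17 under DMSO (SD, n = 3 each). The set difference passed under RG7112 (-1.02 ± 0.21, limma adjusted p = 0.0168), where 2.14% of all probes passed. It also passed under HDM201 (-0.93 ± 0.21, limma adjusted p = 0.0226), where 2.76% did, and not under DMSO (-0.52 ± 0.21, limma adjusted p = 0.682), where 0.303% did. In each group the lower PHGDH set was replicates 1 to 3, the set with the higher CDKN1A signal. A link between these signals was not tested and cannot be told apart from anything else that differs between the sets. The fall with treatment was -2.64 within replicates 1 to 3 and -2.13 within 4 to 6 for RG7112, and -2.82 and -2.41 for HDM201. The difference of the fall between the sets did not pass for RG7112 (-0.50 ± 0.30, limma adjusted p = 0.846), where 0.0373% of all probes passed, or for HDM201 (-0.41 ± 0.30, limma adjusted p = 0.925), where 0.149% did. No member passed that test.

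**Figure D2:**
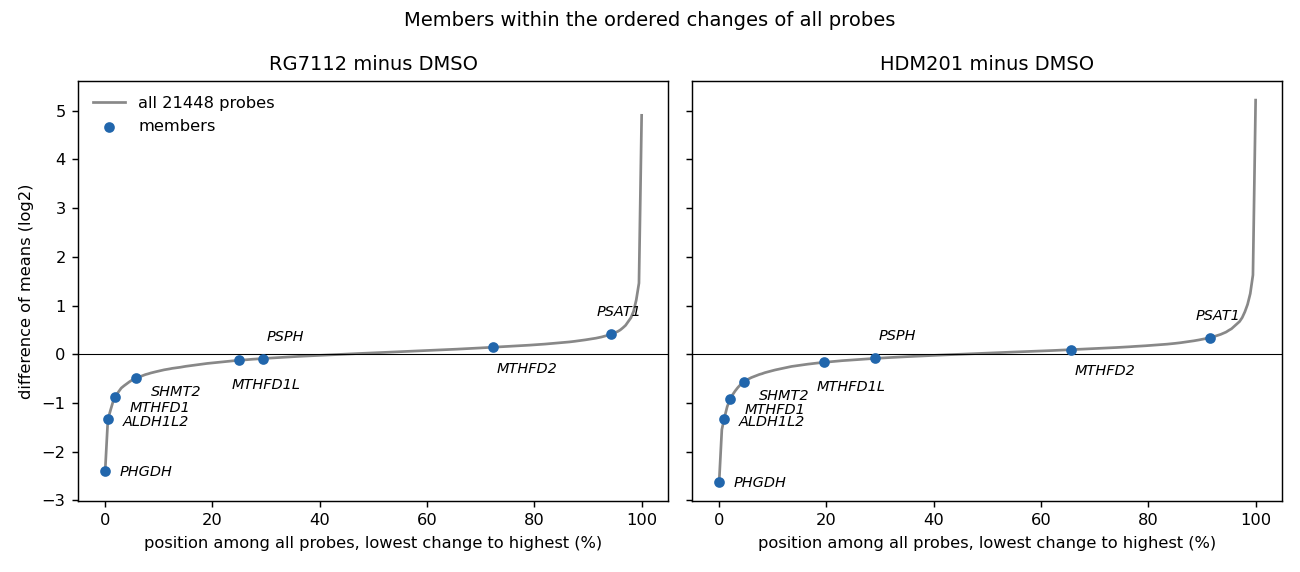
Differences of group means (log2, vertical axis) of all 21448 probes in order from the lowest to the highest (horizontal axis, %), with the 8 members as points, for RG7112 minus DMSO on the left and HDM201 minus DMSO on the right. PHGDH is the lowest point of both curves (-2.39 and -2.61), and PSAT1 lies above most probes at 0.41 and 0.34.

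PSAT1, the next enzyme after PHGDH, did not follow it. Its signal ran from 10.74 to 11.61 with a median of 11.16 under RG7112, from 10.86 to 11.37 with a median of 11.11 under HDM201, and from 10.42 to 10.97 with a median of 10.81 under DMSO. The treated arrays overlapped the controls, RG7112 replicate 3 was the highest array and DMSO replicate 1 the lowest. PSAT1 rose 1.33-fold under RG7112 (0.41 ± 0.12 SE, limma adjusted p = 0.0250). Under HDM201 the difference was 0.34 ± 0.12 and missed the threshold (limma adjusted p = 0.0600). The RG7112 call was lost without DMSO replicate 1 (limma adjusted p = 0.0618), DMSO replicate 5 (0.0537) or RG7112 replicate 3 (0.0551), with array weights (0.0525) and with each array's median subtracted (0.0567). The HDM201 difference passed without any 1 of DMSO 3, RG7112 3 and 5 and HDM201 5 and 6 (limma adjusted p from 0.0220 to 0.0488). It also passed with 7 other settings, which were the other prior, array weights, either filter on dim probes, only the 12 arrays compared, the replicate block and the set covariate (0.00711 to 0.0496). Within replicates 1 to 3 PSAT1 was higher by 0.58 under RG7112 and 0.45 under HDM201, and within 4 to 6 by 0.24 under RG7112 and 0.23 under HDM201. RefSeq lists 4 pseudogenes of PSAT1, whose RNA the probe may also bind.

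PSPH, the last enzyme of serine synthesis, did not pass in either comparison. Its signal ran from 6.64 to 6.95 with a median of 6.81 under RG7112, from 6.63 to 7.18 with a median of 6.76 under HDM201, and from 6.62 to 7.16 with a median of 6.98 under DMSO. The ranges of the 3 groups overlapped, and no group lay apart. The differences from DMSO were -0.09 ± 0.10 under RG7112 (95% interval -0.30 to 0.13, limma adjusted p = 0.609) and -0.08 ± 0.10 under HDM201 (-0.30 to 0.13, limma adjusted p = 0.660). Within replicates 1 to 3 they were -0.0649 for RG7112 and -0.18 for HDM201, and within 4 to 6 they were -0.11 for RG7112 and 0.0146 for HDM201. The RG7112 difference without RG7112 replicate 3 was -0.0965. A pseudogene of PSPH, PSPHP1, is listed in RefSeq.

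The mitochondrial enzymes split into members that fell and members that did not pass. ALDH1L2, which burns one-carbon units to carbon dioxide and makes NADPH, ran from 6.97 to 7.42 with a median of 7.33 under RG7112, from 7.03 to 7.46 with a median of 7.32 under HDM201, and from 8.25 to 8.89 with a median of 8.66 under DMSO. The treated arrays formed a narrow band well below all controls. ALDH1L2 fell 2.52-fold under RG7112 (-1.33 ± 0.11 SE, limma adjusted p = 9.07e-08) and 2.51-fold under HDM201 (-1.33 ± 0.11, limma adjusted p = 3.90e-08). The fall was -1.52 within replicates 1 to 3 and -1.14 within 4 to 6 for RG7112, and -1.56 and -1.09 for HDM201, and without RG7112 replicate 3 the RG7112 fall was -1.27 (limma adjusted p = 1.59e-07). Ordered from the lowest difference over all probes, ALDH1L2 was number 114 for RG7112 and 193 for HDM201.

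SHMT2, the enzyme that loads the carbon of serine onto folate in mitochondria, ran from 10.76 to 11.28 with a median of 11.05 under RG7112, from 10.69 to 11.24 with a median of 10.99 under HDM201, and from 11.38 to 11.66 with a median of 11.58 under DMSO. The groups did not overlap, but the gap between the highest treated and the lowest control array was small. SHMT2 fell 1.41-fold under RG7112 (-0.49 ± 0.11 SE, limma adjusted p = 0.00233) and 1.48-fold under HDM201 (-0.56 ± 0.11, limma adjusted p = 5.15e-04). Within replicates 1 to 3 the differences were -0.57 for RG7112 and -0.67 for HDM201, and within 4 to 6 they were -0.41 for RG7112 and -0.46 for HDM201. The RG7112 difference without RG7112 replicate 3 was -0.44 (limma adjusted p = 0.00511).

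MTHFD2, the dehydrogenase and cyclohydrolase that acts on the product of SHMT2, ran from 10.52 to 11.58 with a median of 10.81 under RG7112, from 10.59 to 11.06 with a median of 10.91 under HDM201, and from 10.62 to 10.89 with a median of 10.77 under DMSO. The groups overlapped, and RG7112 replicate 3 was the highest array at 11.58. The differences were 0.14 ± 0.13 under RG7112 (95% interval -0.14 to 0.42, limma adjusted p = 0.510) and 0.09 ± 0.13 under HDM201 (-0.19 to 0.37, limma adjusted p = 0.722). They differed in sign between the sets, with 0.37 for RG7112 and 0.21 for HDM201 within replicates 1 to 3, and -0.09 for RG7112 and -0.02 for HDM201 within 4 to 6. Without RG7112 replicate 3 the RG7112 difference was 0.0078 (limma adjusted p = 0.972). RefSeq lists 7 pseudogenes of MTHFD2.

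MTHFD1L, the mitochondrial synthetase that sets formate free, ran from 8.53 to 9.08 with a median of 8.83 under RG7112, from 8.59 to 9.01 with a median of 8.79 under HDM201, and from 8.73 to 9.23 with a median of 9.01 under DMSO. The groups overlapped over most of their range, but each treated array lay below the DMSO array of the same number. With the replicate block the limma adjusted p was 0.18 for RG7112 and 0.0729 for HDM201, so neither passed. The differences were -0.12 ± 0.11 under RG7112 (95% interval -0.35 to 0.11, limma adjusted p = 0.488) and -0.17 ± 0.11 under HDM201 (-0.40 to 0.07, limma adjusted p = 0.363). Within replicates 1 to 3 they were -0.15 for RG7112 and -0.17 for HDM201, and within 4 to 6 they were -0.10 for RG7112 and -0.16 for HDM201. The RG7112 difference without RG7112 replicate 3 was -0.17. Of its 4 promoter windows, the one shown above held both the E-box and the composite element. Counted from another annotated start, the same sites lie at -1 and 25. The window with TTTGAA held neither.

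MTHFD1, the cytosolic enzyme with 3 activities that takes up formate, ran from 9.20 to 10.16 with a median of 9.91 under RG7112, from 9.55 to 10.06 with a median of 9.80 under HDM201, and from 10.40 to 10.82 with a median of 10.79 under DMSO. No treated array reached the controls, and the lowest arrays of their groups, RG7112 replicate 3 and DMSO replicate 1, stood clear of the rest. MTHFD1 fell 1.84-fold under RG7112 (-0.88 ± 0.13 SE, limma adjusted p = 6.10e-05) and 1.90-fold under HDM201 (-0.93 ± 0.13, limma adjusted p = 2.22e-05). The falls were -1.003 and -0.76 within replicates 1 to 3 and 4 to 6 for RG7112, and -1.04 and -0.82 for HDM201. Without RG7112 replicate 3 the RG7112 difference was -0.75 (limma adjusted p = 2.14e-05). RefSeq lists 1 pseudogene of MTHFD1.

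**Figure D3:**
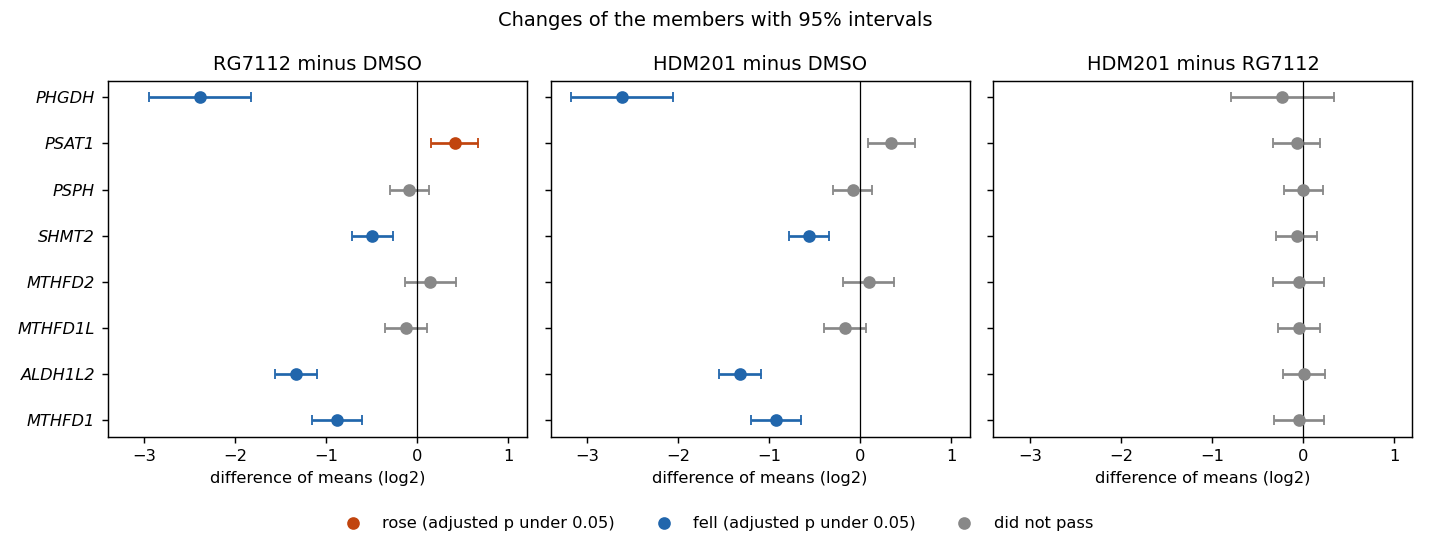
Differences of group means (log2, horizontal axis) with 95% intervals from limma for the 8 members in the 3 comparisons, blue where a gene fell, red where it rose and grey where it did not pass. The intervals of PHGDH, SHMT2, ALDH1L2 and MTHFD1 lie below 0 against DMSO, and in HDM201 minus RG7112 all 8 intervals include 0.

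The members were also compared between HDM201 and RG7112, which were given at different doses, so the comparison sets a pair of treatments against each other and not equal amounts. None of the 8 members passed, and 0% of all probes did by limma. At an unadjusted p under 0.05 the model gave 749 probes and 0 members. PHGDH had the widest difference, -0.23 ± 0.27 (95% interval -0.79 to 0.34, limma adjusted p = 0.991), with means of 6.83 ± 0.53 under HDM201 and 7.06 ± 0.65 under RG7112 (SD, n = 6 each). With 1 array left out this difference ran from -0.41, without RG7112 replicate 3, to -0.0538, without RG7112 replicate 4, and did not pass in any of the 18 fits. The differences of the other 7 members lay between -0.07 and 0.01. Their intervals reached from -0.33 to 0.24, and differences up to these sizes remain possible for them. Without HDM201 replicate 6, 1 probe fell in this comparison over all probes.

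Part of the genes that import serine and glycine or use them fell. Of 14 measured genes of serine and glycine use and transport 7 fell under RG7112 and 6 under HDM201, and none rose in either, beside 9.61% and 9.64% of all probes that fell. The list median was -0.35 under RG7112 and -0.31 under HDM201, beside 0.03 and 0.02 for all probes. SLC38A1, a carrier of small neutral amino acids, fell by 1.14 ± 0.20 under RG7112 (limma adjusted p = 3.83e-04) and by 1.05 ± 0.20 under HDM201 (6.17e-04). CBS, which joins serine to homocysteine, fell by 0.84 ± 0.14 under RG7112 (limma adjusted p = 1.65e-04) and 0.93 ± 0.14 under HDM201 (3.31e-05), and SLC1A5, a glutamine and serine carrier, fell by 0.77 ± 0.14 under RG7112 (5.02e-04) and 0.87 ± 0.14 under HDM201 (9.25e-05). SLC1A4, another serine carrier, differed by -0.29 ± 0.13 under RG7112 and -0.19 ± 0.13 under HDM201 and did not pass. Without RG7112 replicate 3 the RG7112 differences were -0.92 for SLC38A1 and -0.14 for SLC1A4. In the glycine cleavage system 1 of 3 measured genes fell under each compound: GCSH, the lipoyl carrier protein, by 0.50 ± 0.13 under RG7112 (limma adjusted p = 0.00987) and 0.58 ± 0.13 under HDM201 (0.00243). GLDC, the decarboxylase of that system, had a DMSO mean of 4.82 and differed by -0.14 ± 0.14 under both compounds. Without RG7112 replicate 1, 1 gene of serine and glycine use rose under RG7112.

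Of 12 measured folate carriers and other folate enzymes 3 fell and none rose under RG7112, and 4 fell and 1 rose under HDM201. Over all probes 9.61% fell and 7.9% rose under RG7112, and 9.64% fell and 9.16% rose under HDM201. GGH, which trims the glutamate tail of folates, fell by 1.25 ± 0.14 under RG7112 (limma adjusted p = 2.09e-06) and by 1.47 ± 0.14 under HDM201 (1.50e-07). SLC19A1, the reduced folate carrier, fell by 0.61 ± 0.14 under RG7112 (limma adjusted p = 0.00466) and 0.76 ± 0.14 under HDM201 (5.31e-04), and TYMS, thymidylate synthase, by 0.31 ± 0.08 under RG7112 (0.0110) and 0.45 ± 0.08 under HDM201 (4.23e-04). SLC25A32, the mitochondrial folate carrier, differed by -0.27 ± 0.12 under RG7112 and -0.14 ± 0.12 under HDM201 and did not pass. The gene that rose was MTFMT, which formylates mitochondrial initiator tRNA, named here after its value was seen (0.22, limma adjusted p = 0.0387), and the count was 0 when any 1 of DMSO 1, 2, 3, 5 and 6 and HDM201 2 to 6 was left out.

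Most genes of de novo purine synthesis, which consumes formyl folate, fell. Of 11 measured genes 8 fell under each compound and none rose. Of all probes 9.61% fell and 7.9% rose under RG7112, and 9.64% fell and 9.16% rose under HDM201. The list median was -0.54 under RG7112 and -0.56 under HDM201, beside 0.03 and 0.02 for all probes. PPAT, its committed step, fell by 0.79 ± 0.15 under RG7112 (limma adjusted p = 7.19e-04) and 0.96 ± 0.15 under HDM201 (6.32e-05), PAICS by 0.82 ± 0.16 under RG7112 (0.00114) and 0.80 ± 0.16 under HDM201 (0.00109), and PRPS1, which makes the ribose phosphate donor, by 0.78 ± 0.16 under RG7112 (0.00160) and 0.90 ± 0.16 under HDM201 (3.20e-04). ATIC, which carries out the last formyl transfer, differed by -0.31 ± 0.11 under RG7112 (limma adjusted p = 0.0533) and -0.27 ± 0.11 under HDM201 (0.0850). ATIC passed under RG7112 without any 1 of DMSO 1, RG7112 4 and 6 and HDM201 4 (limma adjusted p from 0.0236 to 0.0467), and with the other prior, either filter on dim probes, array medians subtracted, the replicate block or the set covariate (0.0221 to 0.0441). Under HDM201 ATIC passed without any 1 of DMSO 1, RG7112 3 and HDM201 4 (0.0407 to 0.0455), and with array weights, only the 12 arrays compared, the block or the covariate (0.0205 to 0.0469).

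In the methionine cycle, the third outlet of one-carbon units, few genes passed. Of 9 measured genes 1 fell and 1 rose under RG7112, and 1 fell under HDM201, shares near those over all probes (9.61% fell and 7.9% rose under RG7112, 9.64% fell under HDM201). MTR, methionine synthase, fell by 0.37 ± 0.10 under RG7112 (limma adjusted p = 0.0107) and 0.38 ± 0.10 under HDM201 (0.00807). AHCY, which hydrolyses S-adenosylhomocysteine, rose by 0.26 ± 0.09 under RG7112 (limma adjusted p = 0.0431) and differed by 0.21 ± 0.09 under HDM201 (0.102). The RG7112 call of AHCY was lost without any 1 of 11 arrays, which were all but DMSO 3 and 4, RG7112 2 and 6, and HDM201 2, 3 and 4 (0.0505 to 0.0929). It was also lost with array medians subtracted (0.114) and with only the 12 arrays compared (0.0926). Under HDM201 AHCY passed without RG7112 replicate 3 (0.0335), with array weights (0.0314) and with 12 arrays (0.0472). MTRR, the reductase that reactivates MTR, differed by -0.21 ± 0.12 under RG7112 and -0.06 ± 0.12 under HDM201. Without RG7112 replicate 3, where MTRR was low, its RG7112 difference was -0.0666 (limma adjusted p = 0.611).

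ATF4 and the genes of the amino acid response went both ways. Of 16 measured genes 7 rose and 4 fell under RG7112, and 8 rose and 5 fell under HDM201. The shares of all probes were 7.9% up and 9.61% down under RG7112, and 9.16% up and 9.64% down under HDM201. SLC7A11, the cystine antiporter subunit, rose by 2.80 ± 0.19 under RG7112 (limma adjusted p = 4.95e-09) and 2.74 ± 0.19 under HDM201 (3.21e-09). SESN2 and DDIT4, which restrain mTOR and are also p53 targets, rose by 1.53 ± 0.15 under RG7112 (limma adjusted p = 6.97e-07) and 1.74 ± 0.15 under HDM201 (7.46e-08), and by 1.10 ± 0.31 under RG7112 (0.0173) and 1.18 ± 0.31 under HDM201 (0.00950). The DDIT4 call under RG7112 was lost without DMSO replicate 4 (0.0510). VLDLR, a lipoprotein receptor, differed by -0.42 ± 0.22 under RG7112 and -0.30 ± 0.22 under HDM201 and did not pass. Named after their values were seen, ATF4 itself fell by 0.45 under RG7112 (limma adjusted p = 5.17e-04) and 0.40 under HDM201 (0.00112), and ASNS, asparagine synthetase, fell by 1.11 under RG7112 (3.26e-04) and 0.99 under HDM201 (7.67e-04).

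Glycolysis, which supplies 3-phosphoglycerate to PHGDH, had 4 of 13 measured genes lower under RG7112 and 5 under HDM201, with none higher. The list also holds PGAM1, ENO1 and PKM, which act after 3-phosphoglycerate. Among all probes 9.61% fell and 7.9% rose under RG7112, and 9.64% fell and 9.16% rose under HDM201. The list median was -0.28 under RG7112 and -0.32 under HDM201, beside 0.03 and 0.02 for all probes. PFKP, a phosphofructokinase, fell by 0.56 ± 0.14 under RG7112 (limma adjusted p = 0.00686) and 0.67 ± 0.14 under HDM201 (0.00128). PGK1, which makes 3-phosphoglycerate, fell by 0.43 ± 0.14 under RG7112 (limma adjusted p = 0.0415) and 0.50 ± 0.14 under HDM201 (0.0160), and GPI fell by 0.50 ± 0.16 under RG7112 (0.0387) and differed by -0.40 ± 0.16 under HDM201 (0.0967). HK2, a hexokinase, differed by -0.65 ± 0.24 under RG7112 (limma adjusted p = 0.0655) and -0.54 ± 0.24 under HDM201 (0.127). Under RG7112 PGK1 was lost without any 1 of DMSO 1, 5 and 6 and RG7112 1, 2, 3, 4 and 6 (0.0543 to 0.106), and GPI without any 1 of DMSO 1, 4, 5 and 6 and RG7112 1, 2 and 3 (0.0503 to 0.0858). Array weights ended the RG7112 calls of GPI (0.0717) and PGK1 (0.0745), as did the use of 12 arrays (0.0623 and 0.0649), and a further quantile normalization ended that of PGK1 (0.0693). The RG7112 count fell to 1 without DMSO 5 or 6 and to 2 without DMSO 1 or RG7112 1 or 2. Under HDM201 GPI passed without RG7112 replicate 3 (0.0221) or HDM201 replicate 5 (0.0490), and with array weights (0.0226), 12 arrays (0.0226), the block (0.00787) or the set covariate (0.0253). HK2 passed under HDM201 without HDM201 replicate 5 (0.0449), and with the block (5.37e-04) or the covariate (0.0284). Under RG7112 HK2 passed without DMSO replicate 3 (0.0480) or, barely, RG7112 replicate 5, and with the filter at the median (0.0447), array medians subtracted (0.0422), the block (1.34e-04) or the covariate (0.0103).

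**Figure D4:**
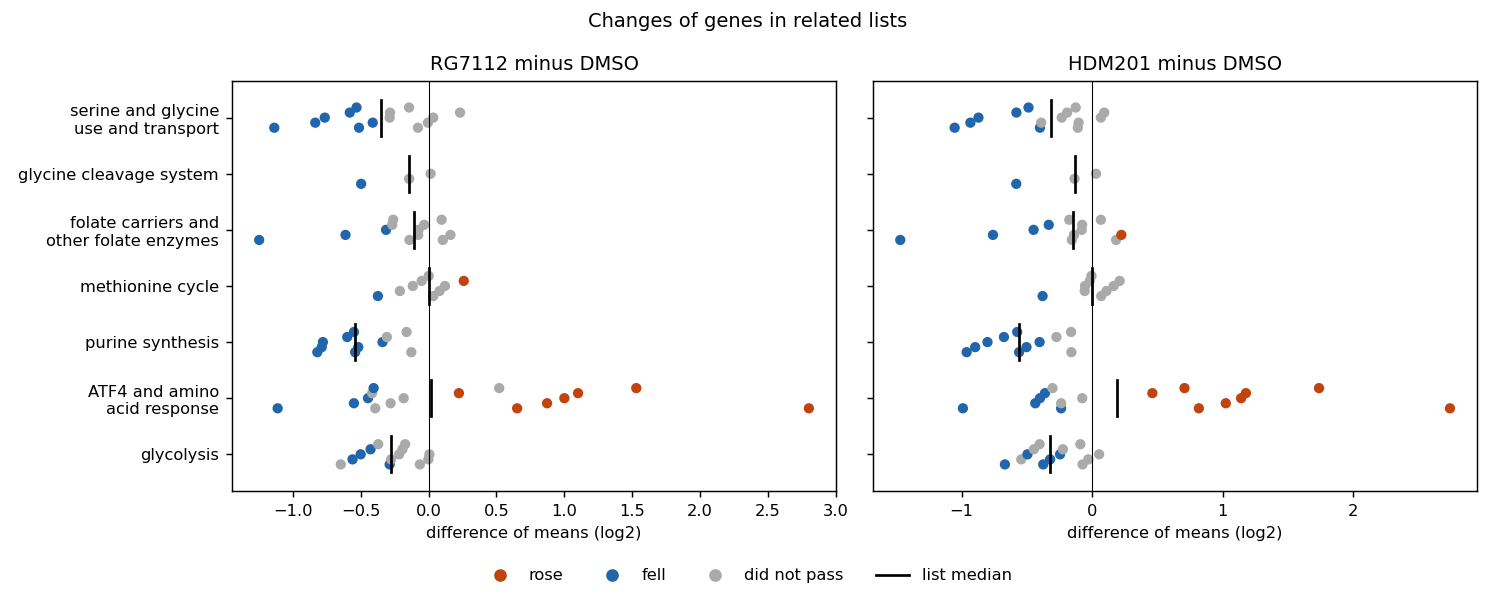
Differences of group means (log2, horizontal axis) of the measured genes in the 7 related lists, for RG7112 minus DMSO on the left and HDM201 minus DMSO on the right, red where a gene rose, blue where it fell, grey where it did not pass, and a bar at the list median. Purine synthesis has its median at -0.54 and -0.56, and the ATF4 list spreads to both sides of 0.

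The genes whose pattern over the 18 arrays came nearest to each changed member were found by the root mean square difference of the signals after subtraction of each probe's mean. For PHGDH these were DIAPH3, a formin, at 0.37, and PBK, a mitotic kinase, at 0.38, while the SD of PHGDH over the arrays was 1.32. For MTHFD1 they were POLD3, a subunit of DNA polymerase delta, at 0.08, and the chromatin protein DEK at 0.09, against an SD of 0.49. ALDH1L2 was nearest to ATAD2, a chromatin ATPase, at 0.15, and to NET1 at 0.16 (SD 0.67), and SHMT2 to BANF1, a chromatin binding factor, at 0.07, and the spliceosome protein SNRPB at 0.09 (SD 0.31). PSAT1 was nearest to EXT2, which builds heparan sulfate, at 0.11, and to the tetraspanin TSPAN17 at 0.12 (SD 0.28). The proliferation marker MKI67 also fell, by 1.16 ± 0.20 under RG7112 (limma adjusted p = 2.46e-04) and by 1.28 ± 0.20 under HDM201 (6.09e-05), and its part in the falls of the members was not tested. In bulk RNA such as this a smaller share of cells that express a gene and less RNA per cell cannot be told apart.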

How the data were processed

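RNA from 18 cultures of OCI-AML3 cells was labelled with biotin by a WT Pico kit and hybridised, per the labels' protocols. The authors deposited log2 signals per probe set, made with oligo and its RMA method (background correction, quantile normalization, summary), per the submitters' processing notes. Tool versions and genome build were not given in the sources used here. A platform annotation named 17709 of 21448 probes by 1 symbol, none by several and 3739 not at all. All 18 columns were used.

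The signals were fitted in limma 3.58.1 (R 4.3.3) with 1 mean for each of the 3 groups and default empirical Bayes, and Benjamini-Hochberg adjusted p-values over all probes were read at 0.05. The fit was tested on simulated data with independent normal values. These had no replicate sets and no array apart, so that test does not cover those traits of the arrays. Change by replicate set came from a model with a mean per group and set. Groups follow the labels. Deviations from group means correlated at 0.12 to 0.44 between HDM201 and RG7112 arrays of the same number, over 0.1 in all 6 pairs. The own number was the best match in 4 of 6. These deviations also hold the difference between the replicate sets. That difference can raise the correlation of all arrays of a set, but it does not single out the own number. Whether arrays of the same number were paired was not tested. The block changed no call between HDM201 and RG7112.

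The members and lists were chosen with earlier results of these data known. The text names all members, up to 3 changed genes per list with the largest difference, the largest difference that did not pass, CDKN1A, MDM2, MKI67 and the 2 nearest genes of each changed member. Alternatives were another prior, array weights, filters on dim probes (25th and 50th percentile), other scalings, fewer arrays, the replicate number as a block, the replicate sets, and each array left out.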

Additional observations from a re-analysis of the deposited data

Results flagged for a closer look

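A value was marked when the lowest or highest array of a group lay far from the others by Dixon's test for 6 values. Of 108 combinations of a named gene and a group 8 were marked, and chance marks about 1 in 20 (5%). MTHFD1 lay at 9.20 on RG7112 replicate 3 (9.82 to 10.16 in the rest of its group) and at 10.40 on DMSO replicate 1 (10.68 to 10.82). SLC38A1 was 7.38 on RG7112 replicate 3 (8.48 to 8.99), SLC1A4 was 8.65 (9.33 to 9.67) and MTRR was 9.66 (10.45 to 10.68) on the same array. CBS was 10.52 on DMSO replicate 1 (10.71 to 10.81), MTR was 9.43 on DMSO replicate 5 (9.01 to 9.16) and MKI67 was 11.06 on DMSO replicate 3 (11.27 to 11.39). Of the 8 values 4 lie on RG7112 replicate 3, the array with the lowest correlation with its group, and the cause was not tested. No named gene passed the test of whether its change differed between the replicate sets.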

How the results depend on the processing

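PHGDH, ALDH1L2, MTHFD1 and SHMT2 fell under both compounds in each of the 29 alternative fits. The count of members that rose was less stable and follows PSAT1. Under RG7112 it was 0, and not 1, with array weights, with array medians subtracted and within either replicate set, and 0 to 1 with 1 array left out. Under HDM201 it was 1, and not 0, with the other prior, array weights, either filter on dim probes, only the 12 arrays compared, the replicate block or the replicate set as a covariate, and 0 to 1 with 1 array left out. With the block PSAT1 gave 0.34 under HDM201 (limma adjusted p = 0.00711). Arrays of the same number deviated together in 5 of 6 pairs with DMSO for each compound (lowest correlations 0.02 for RG7112 and 0.08 for HDM201). The own number was the best match in 5 of 6 for each. The deviations also hold the difference between the replicate sets, which does not by itself single out the own number. Whether arrays were paired by number was not tested, so the block is given as an alternative to the main fit. For PSAT1 under HDM201 the set covariate alone gave a limma adjusted p of 0.0375, above that of the block. The block raised the counts to 2148 probes up and 2632 down for RG7112 and to 2323 up and 2543 down for HDM201. It also made VLDLR pass under RG7112 (0.0399), GPI under HDM201 (0.00787), and under both compounds HK2 (RG7112 1.34e-04, HDM201 5.37e-04) and ATIC (RG7112 0.0236, HDM201 0.0411). Within 1 replicate set alone PSAT1, GCSH, SLC19A1, TYMS, MTR, AHCY, DDIT4, PFKP, GPI and PGK1 lost some of their calls. Replicates 1 to 3 alone gave 893 probes up and 1080 down for RG7112 (against 1695 and 2062) and 1167 up and 1337 down for HDM201 (against 1965 and 2067). Replicates 4 to 6 alone gave 989 up and 1159 down for RG7112 and 1298 up and 1297 down for HDM201. Each set holds 9 of the 18 arrays. With array medians subtracted the share of RG7112 calls that rose was 33.2% (1268 up, 2551 down), against 45.1%. For HDM201 against RG7112 0 to 1 probes fell with 1 array left out.

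Signs turned only in values that did not pass. Within replicates 4 to 6 MTHFD2 was -0.086 for RG7112 and -0.0247 for HDM201, and PSPH 0.0146 and MTRR 0.0155 for HDM201. GLDC was 0.19 for RG7112 and 0.0263 for HDM201 within replicates 1 to 3. Between HDM201 and RG7112, array weights gave 0.0068 for PSAT1, 0.079 for MTHFD2 and -0.0633 for ALDH1L2, replicates 1 to 3 gave -0.12 for PSPH and -0.0383 for ALDH1L2, and replicates 4 to 6 gave 0.0612 for MTHFD2. With 1 array left out that difference ran from -0.15 to 0.0223 for PSAT1, -0.0689 to 0.0412 for PSPH, -0.17 to 0.017 for MTHFD1, -0.13 to 0.0858 for MTHFD2, -0.10 to 0.0051 for MTHFD1L and -0.0568 to 0.0572 for ALDH1L2. A further quantile normalization turned the set difference of MTHFD1L to 0.0036 for RG7112 and 0.031 for HDM201. Of the counts of list genes under alternatives, which were added after seeing the data, 750 stayed within 1.5 times and 62 did not, and with the block 8 glycolysis genes fell under RG7112 and 9 under HDM201. Averaging several probes of a symbol was not run, since each member has 1. The cause was not tested for any of these.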
